A study of Mus musculus with 8 samples.

Results

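Interstitial matrix and fibroblast genes are a set of 36 of the 21812 symbols in the deposited table. These genes were listed by symbol, with earlier results of these data known. They encode the collagens, crosslinking enzymes, proteoglycans and elastic fibre proteins of connective tissue, together with secreted, contractile, surface and transcription factor genes that are used to mark fibroblasts. All 36 symbols were found, and 34 had enough signal for a test. Total RNA of mouse embryonic stem cells (mESCs) in PrE-induce medium, where PrE is the usual short form of primitive endoderm, was sequenced in 8 libraries of 4 groups. The groups were Mettl3 cKO and its control Mettl3 WT, and Virma cKO and its control Virma WT, with 2 libraries each. Mettl3 is the methyltransferase of the m6A (N6-methyladenosine) writer complex, and Virma is one of its large scaffold proteins. All 8 carry the term D2 in the labels, which the labels do not explain, and no age, dose, deletion agent, clone or strain is given. They do not say whether the libraries of a group came from separate cultures, so p-values measure the spread between these libraries, which may be technical. The fit shares that spread over genes, so a p-value does not rest on the libraries of its own gene alone.

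Interstitial matrix is the meshwork between cells of connective tissue, as distinct from the basement membrane sheets that primitive endoderm is known to secrete. Fibril-forming collagens are made as procollagens, trimmed outside the cell, packed into fibrils and crosslinked, while proteoglycans and other collagens decorate the fibril surface. Fibroblasts and other mesenchymal cells are the best known source of these proteins, and fibronectin and vimentin are also made by many early embryonic cells.

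The values are scaled counts, that is, read counts that had been multiplied by a factor per library before deposit. The reads behind the values were estimated from how often each low value occurs: about 17620000 and 15990000 in Mettl3 cKO, 6700000 and 6200000 in Mettl3 WT, 22980000 and 22290000 in Virma cKO, and 25610000 and 25020000 in Virma WT. Mettl3 WT was thus the shallowest group, and 10 members rest on fewer than 20 reads in at least 1 of its libraries. Depth differs along with genotype in the Mettl3 comparison and along with line in the comparison of the controls, and its part in the results was not tested. Mettl3 RNA stood at 588 and 560 scaled counts in Mettl3 cKO, against 596 and 588 in Mettl3 WT, a difference that did not pass the test (limma, adjusted p = 0.683). This value leaves the label Mettl3 cKO unchecked, since the deleted part of the gene is not given. Virma RNA stood at 1173 and 1214 in Virma cKO, against 1564 and 1488 in Virma WT, and fell by 0.36 ± 0.04 on the log2 scale (adjusted p = 1.96e-12). In the same comparison Mettl3 RNA stood at 565 and 552 in Virma cKO, against 768 and 742 in Virma WT, and fell by 0.43 ± 0.05 (adjusted p = 2.66e-11). Directions below are those of the libraries so labelled.

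Most members were higher in both cKO groups than in their controls, and the type I and III collagen genes by over 2-fold. In the libraries labelled Mettl3 cKO 28 of the 34 tested members were higher, 1 was lower and 5 did not pass the test; across all 12671 genes tested, 56.8% were called, 26.7% higher and 30.1% lower. In Virma cKO 32 members were higher and 2 lower, against 36.5% higher and 38.7% lower of all genes (75.2% in either direction). A gene was called when its adjusted p in limma (Benjamini-Hochberg over all genes tested) was below 0.05. The median log2 fold change of the members was 0.81 in Mettl3 cKO and 1.20 in Virma cKO, beside −0.01 and −0.02 for all genes. Of the members, 14 were called and at least 2-fold changed in Mettl3 cKO and 23 in Virma cKO, all upward, where 5.22% and 8.78% of all genes were so in either direction. The same 28 members were called higher in both comparisons. Among them Lum was below 30, the minimum for a test, in every Mettl3 library and was tested only because of its Virma values. Dcn, Twist2 and Prrx1 met that minimum in the Mettl3 line only through Mettl3 cKO, the group where they were higher. With each line fitted on its own 27 members were called higher in Mettl3 cKO.

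**Figure D1:**
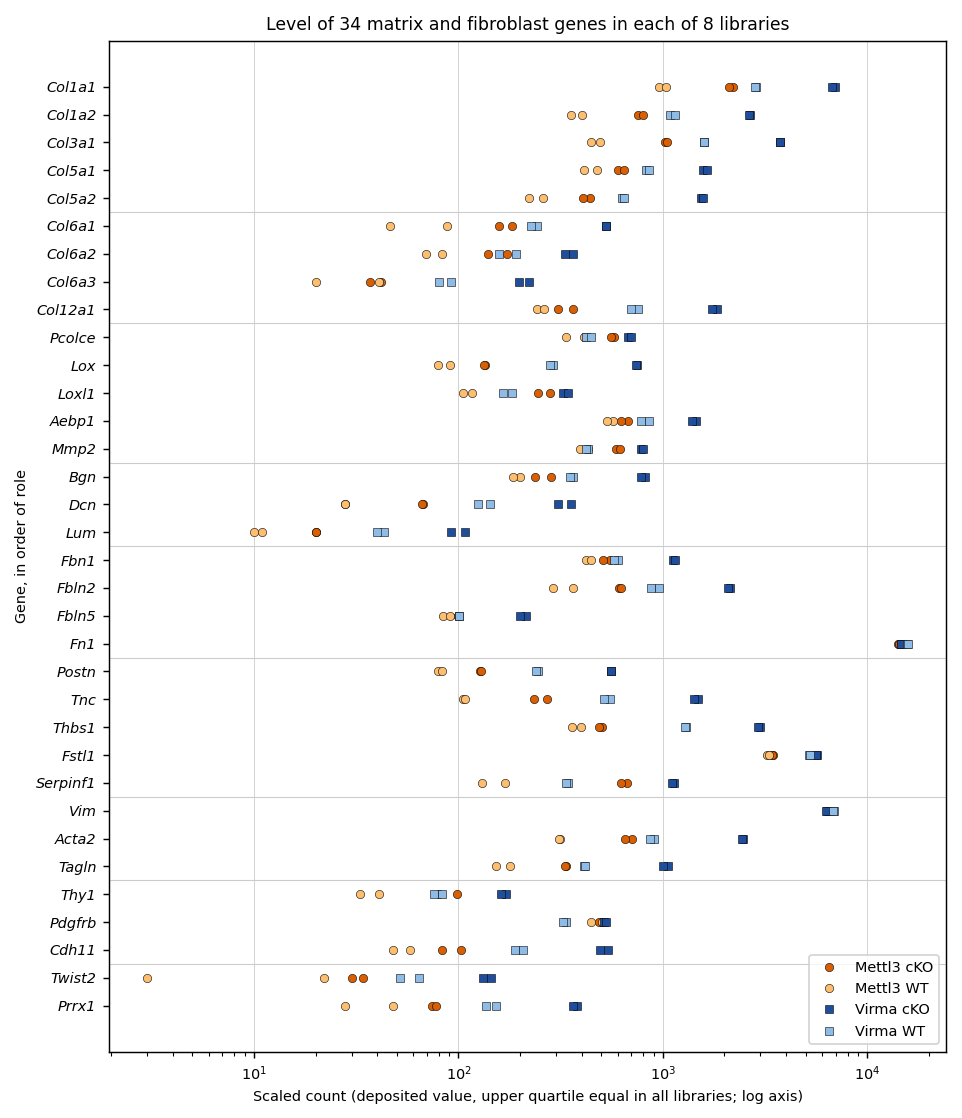
Scaled counts of the 34 tested members (log axis) in the 8 libraries, ordered by role; each point is 1 library, coloured by group. For 26 of them the group means run in the order Mettl3 WT, Mettl3 cKO, Virma WT, Virma cKO, which was not counted for other genes. Fn1 stands highest in every group. Vim and Fstl1 stand above the remaining genes, except that Col1a1 is above both in Virma cKO.

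The 5 fibril-forming collagen genes were all higher in both cKO groups. Col1a1, which encodes the more abundant chain of type I collagen, had 2190 and 2105 scaled counts in Mettl3 cKO against 953 and 1032 in Mettl3 WT, and 6975 and 6695 in Virma cKO against 2848 and 2823 in Virma WT. The libraries of a group lay within a few percent of each other for Virma and the 4 groups did not overlap. Its log2 fold change was 1.12 ± 0.07, adjusted p = 4.37e-25 in Mettl3 cKO, and 1.27 ± 0.03, adjusted p = 6.57e-52 in Virma cKO, where ± is the standard error throughout. Col1a2, the partner chain of the same heterotrimer, had 759 and 801 scaled counts in Mettl3 cKO against 357 and 403 in Mettl3 WT, and 2656 and 2650 in Virma cKO against 1079 and 1151 in Virma WT. Per kilobase of gene model the ratio of Col1a1 to Col1a2 was 2.48 in Mettl3 cKO, 2.35 in Mettl3 WT, 2.32 in Virma cKO and 2.30 in Virma WT, so the ratio varied little over the groups. Col3a1, which forms the thin fibrils of type III collagen, had 1027 and 1041 scaled counts in Mettl3 cKO against 492 and 444 in Mettl3 WT, and 3739 and 3756 in Virma cKO against 1590 and 1585 in Virma WT. Its log2 fold change was 1.14 ± 0.09 in Mettl3 cKO and 1.24 ± 0.03 in Virma cKO. Type V collagen is a minor fibril component that limits fibril width. Col5a1 had 605 and 642 scaled counts in Mettl3 cKO against 413 and 475 in Mettl3 WT, and 1566 and 1640 in Virma cKO against 823 and 854 in Virma WT. Col5a2 had 441 and 407 scaled counts in Mettl3 cKO against 260 and 221 in Mettl3 WT, and 1533 and 1575 in Virma cKO against 633 and 647 in Virma WT. The log2 fold change of Col5a1 was 0.49 ± 0.10 in Mettl3 cKO and 0.93 ± 0.04 in Virma cKO, and that of Col5a2 was 0.82 ± 0.13 in Mettl3 cKO and 1.28 ± 0.05 in Virma cKO.

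The start regions of members were read as 300-base windows, 250 bases before to 50 bases after a RefSeq gene start (GRCm38.p6), which were given for 21 of the 36 members (25 windows). Shown here are 4 members that rose in both lines (Col1a2, Col3a1, Acta2 and Serpinf1) beside Vim, which did not, because members with like changes start in unlike sequence: Col1a2 holds GC and CCAAT boxes, and Col3a1 and Acta2 hold neither. These 5 were picked after the values and motif matches were seen. All are written 5′ to 3′ on the strand of the gene, with matches on either strand in capitals. The capitals mark the CCAAT box in Col1a2, Serpinf1 and Vim, the GC box (letters GGGCGG) in Col1a2, the TATA box (letters TATAAA) in Col3a1 and Vim, and the TEAD motif (letters CATTCC) in Col3a1 and Acta2.
Col1a2 (chr6:4505368-4505667, plus strand): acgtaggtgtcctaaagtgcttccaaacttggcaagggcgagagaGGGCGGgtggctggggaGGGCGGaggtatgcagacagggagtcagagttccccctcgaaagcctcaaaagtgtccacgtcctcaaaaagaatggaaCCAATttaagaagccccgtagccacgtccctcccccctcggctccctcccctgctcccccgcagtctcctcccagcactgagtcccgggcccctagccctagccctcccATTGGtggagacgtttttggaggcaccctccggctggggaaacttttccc
Col3a1 (chr1:45311288-45311587, plus strand): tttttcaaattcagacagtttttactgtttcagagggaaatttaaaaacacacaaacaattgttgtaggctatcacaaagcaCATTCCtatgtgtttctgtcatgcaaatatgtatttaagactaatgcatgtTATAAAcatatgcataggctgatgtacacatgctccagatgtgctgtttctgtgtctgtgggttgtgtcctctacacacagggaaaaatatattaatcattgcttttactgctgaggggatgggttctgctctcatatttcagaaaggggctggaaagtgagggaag
Acta2 (chr19:34255324-34255623, minus strand): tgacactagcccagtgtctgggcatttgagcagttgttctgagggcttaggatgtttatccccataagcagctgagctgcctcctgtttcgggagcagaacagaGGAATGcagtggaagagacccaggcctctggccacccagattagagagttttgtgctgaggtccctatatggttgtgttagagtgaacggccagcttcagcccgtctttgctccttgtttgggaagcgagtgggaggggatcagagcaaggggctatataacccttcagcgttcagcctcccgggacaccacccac
Serpinf1 (chr11:75422574-75422873, minus strand): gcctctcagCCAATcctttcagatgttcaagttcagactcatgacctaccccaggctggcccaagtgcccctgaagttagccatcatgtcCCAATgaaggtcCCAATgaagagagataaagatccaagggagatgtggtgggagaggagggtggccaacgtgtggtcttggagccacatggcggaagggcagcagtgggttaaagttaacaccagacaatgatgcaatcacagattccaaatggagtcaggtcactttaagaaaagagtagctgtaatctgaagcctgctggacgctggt
Vim (chr2:13574061-13574360, plus strand): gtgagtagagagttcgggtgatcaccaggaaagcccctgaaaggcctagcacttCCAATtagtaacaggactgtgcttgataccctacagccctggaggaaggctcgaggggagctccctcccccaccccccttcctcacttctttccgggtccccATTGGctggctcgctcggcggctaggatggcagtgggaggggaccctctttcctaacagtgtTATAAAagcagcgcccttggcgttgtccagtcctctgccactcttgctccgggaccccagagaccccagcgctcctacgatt

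Among the 25 member windows 14 held GGGCGG (56.0%), against 35.7% of all 32851 windows of the table. The letters CCAAT stood in 6 (24.0%), against 37.4%, TATAAA in 6 (24.0%), against 13.6%, and CATTCC in 4 (16.0%), against 14.7%. These shares count windows and not genes: overlapping windows of Tnc hold the same TATAAA and GGGCGG sites, each counted again. The windows with TATAAA belong to Col3a1, Postn, S100a4, Tnc and Vim. TGANTCA (AP-1) and CACCTG (Snail and ZEB E-box) each stood in 1 window (4.00%), against 7.81% and 20.2% of all. The CArG box, the serum response factor element, was searched only as CC, 6 letters of A or T, and GG. In that form it matched none, against 1.63% of all windows. Forms that differ from it by 1 letter were not searched, and the Acta2 window shown holds such forms. The count therefore does not say that these windows lack a serum response factor element. In the windows shown, Col1a2 has a CCAAT match 109 bases before the start and GGGCGG matches 205 and 188 bases before it. The TATAAA match of Col3a1 lies 117 bases before the start, and that of Vim 32 bases before it. These are matches of letters, whose use as promoter elements was not tested, and TATA boxes with other letters were not searched.

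Collagen VI forms beaded filaments around cells, and collagen XII sits on the surface of fibrils. Col6a1 had 158 and 183 scaled counts in Mettl3 cKO against 46 and 88 in Mettl3 WT, and 524 and 525 in Virma cKO against 243 and 227 in Virma WT. Leaving out Mettl3 WT library 1 brought its Mettl3 log2 fold change of 1.41 ± 0.23 to 0.94, still called (adjusted p = 0.00242). Col6a2 had 173 and 139 scaled counts in Mettl3 cKO against 69 and 83 in Mettl3 WT, and 333 and 362 in Virma cKO against 191 and 158 in Virma WT, and rose by 1.04 ± 0.22 in Mettl3 cKO and 0.99 ± 0.09 in Virma cKO on the log2 scale. The third chain, Col6a3, had 37 and 42 scaled counts in Mettl3 cKO against 20 and 41 in Mettl3 WT, and 221 and 198 in Virma cKO against 80 and 92 in Virma WT. The Mettl3 groups of Col6a3 overlap, and its value of 0.46 ± 0.33, adjusted p = 0.233, did not pass the test, while in Virma cKO it rose by 1.28 ± 0.12. Col12a1 had 362 and 308 scaled counts in Mettl3 cKO against 242 and 262 in Mettl3 WT, and 1833 and 1733 in Virma cKO against 753 and 699 in Virma WT. It rose by 1.30 ± 0.05 in Virma cKO, and its smaller Mettl3 value of 0.41 ± 0.13, adjusted p = 0.00596, lost the call without Mettl3 WT library 1 (0.35, adjusted p = 0.0897) or without Mettl3 cKO library 1 (0.29, adjusted p = 0.0832).

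All 5 genes of collagen processing and crosslinking were called higher in both cKO groups, with a median log2 fold change of 0.60 in Mettl3 cKO and 0.90 in Virma cKO. Lox and Loxl1 encode lysyl oxidases, which crosslink collagen and elastin. Lox had 135 and 133 scaled counts in Mettl3 cKO against 79 and 91 in Mettl3 WT, and 743 and 741 in Virma cKO against 291 and 280 in Virma WT. Loxl1 had 244 and 279 scaled counts in Mettl3 cKO against 117 and 105 in Mettl3 WT, and 325 and 342 in Virma cKO against 166 and 183 in Virma WT. Lox rose by 0.66 ± 0.20 in Mettl3 cKO and 1.38 ± 0.06 in Virma cKO, and Loxl1 by 1.22 ± 0.18 in Mettl3 cKO and 0.93 ± 0.09 in Virma cKO on the log2 scale. Pcolce, a secreted protein that speeds removal of the procollagen end, had 576 and 556 scaled counts in Mettl3 cKO against 413 and 337 in Mettl3 WT, and 676 and 697 in Virma cKO against 419 and 446 in Virma WT. Mmp2, a gelatin-cleaving metalloproteinase, had 592 and 620 scaled counts in Mettl3 cKO against 395 and 428 in Mettl3 WT, and 782 and 797 in Virma cKO against 428 and 419 in Virma WT. They rose by 0.60 ± 0.10 (Pcolce) and 0.56 ± 0.10 (Mmp2) in Mettl3 cKO and by 0.67 ± 0.06 (Pcolce) and 0.90 ± 0.06 (Mmp2) in Virma cKO. Their levels in Virma WT and Mettl3 WT did not pass the test of a difference (0.21 ± 0.10 for Pcolce and 0.04 ± 0.10 for Mmp2), though Pcolce was called without Mettl3 WT library 1 (0.36, adjusted p = 0.0422). Aebp1, a secreted collagen-binding protein, had 673 and 624 scaled counts in Mettl3 cKO against 573 and 530 in Mettl3 WT, and 1444 and 1389 in Virma cKO against 850 and 781 in Virma WT. Its Mettl3 log2 fold change of 0.23 ± 0.09, adjusted p = 0.0227, was the smallest among the members called higher. The calls of Aebp1 and Lox rest on single libraries: without Mettl3 WT library 2 or Mettl3 cKO library 1 Aebp1 stood at 0.18 (adjusted p = 0.197 and 0.135), and without Mettl3 WT library 1 Lox stood at 0.55 (adjusted p = 0.0737). With the trend over gene length and GC content removed, Aebp1 stood at 0.06 (adjusted p = 0.590).

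The 3 small leucine-rich proteoglycans bind collagen fibrils, and all were called higher in both cKO groups. Bgn (biglycan) had 284 and 237 scaled counts in Mettl3 cKO against 201 and 185 in Mettl3 WT, and 816 and 785 in Virma cKO against 362 and 353 in Virma WT. Dcn (decorin) had 67 and 66 scaled counts in Mettl3 cKO against 28 and 28 in Mettl3 WT, and 354 and 306 in Virma cKO against 143 and 124 in Virma WT. Lum (lumican) had 20 and 20 scaled counts in Mettl3 cKO against 10 and 11 in Mettl3 WT, and 92 and 108 in Virma cKO against 43 and 40 in Virma WT. In Mettl3 WT the values of Lum stand for 4 and 4 reads and those of Dcn for 11 and 10 reads. In Virma cKO the log2 fold changes were 1.16 ± 0.06 for Bgn, 1.30 ± 0.10 for Dcn and 1.24 ± 0.16 for Lum. In Mettl3 cKO Dcn rose by 1.22 ± 0.31. Bgn was called at 0.43 ± 0.15, a call lost without Mettl3 WT library 2 (0.37, adjusted p = 0.0924) or Mettl3 cKO library 1 (0.29, adjusted p = 0.125). Lum was called at 0.87 ± 0.39, adjusted p = 0.0486, and leaving out any single one of the 8 libraries ended that call, at log2 fold changes of 0.81 to 0.93 (adjusted p 0.0641 to 0.140). The lowest came without Mettl3 WT library 1 and the highest without Mettl3 WT library 2.

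The 3 elastic fibre genes were higher in Virma cKO and 2 of them in Mettl3 cKO, and fibronectin was slightly lower in both. Fbn1 encodes fibrillin-1, the core of microfibrils, and the fibulins Fbln2 and Fbln5 join microfibrils, elastin and basement membranes. Fbn1 had 554 and 507 scaled counts in Mettl3 cKO against 421 and 447 in Mettl3 WT, and 1117 and 1144 in Virma cKO against 600 and 576 in Virma WT. Fbln2 had 609 and 627 scaled counts in Mettl3 cKO against 362 and 290 in Mettl3 WT, and 2130 and 2088 in Virma cKO against 877 and 956 in Virma WT. Fbln5 had 99 and 99 scaled counts in Mettl3 cKO against 84 and 91 in Mettl3 WT, and 215 and 201 in Virma cKO against 101 and 101 in Virma WT. In Virma cKO the log2 fold changes were 0.94 ± 0.05 for Fbn1, 1.20 ± 0.04 for Fbln2 and 1.03 ± 0.11 for Fbln5. In Mettl3 cKO Fbln2 rose by 0.92 ± 0.11, and Fbln5 did not pass the test (0.18 ± 0.21, adjusted p = 0.474). Fbn1 was called at 0.29 ± 0.10 in Mettl3 cKO, but not without Mettl3 WT library 1 (0.25, adjusted p = 0.113) or Mettl3 cKO library 1 (0.23, adjusted p = 0.0814). Fn1 (fibronectin), the member with the most scaled counts before any division by length, had 14041 and 14273 scaled counts in Mettl3 cKO against 14934 and 14666 in Mettl3 WT, and 14803 and 14520 in Virma cKO against 15631 and 15860 in Virma WT. Its log2 fold change was −0.06 ± 0.03, adjusted p = 0.0208 in Mettl3 cKO, and −0.10 ± 0.02, adjusted p = 6.23e-07 in Virma cKO. The size and direction of this small change moved with the processing: after scaling by total it was 0.04 in Virma cKO (adjusted p = 0.0238). After correction for gene length and GC content it was 0.02 in Mettl3 cKO (adjusted p = 0.458), −0.23 in Virma cKO (adjusted p = 9.85e-23) and −0.25 for the difference between them (adjusted p = 5.87e-12). Its Mettl3 call was also lost after scaling by total (−0.03, adjusted p = 0.359), and without Mettl3 WT library 1 (−0.05, adjusted p = 0.238), Mettl3 WT library 2 (−0.08, adjusted p = 0.0594) or Mettl3 cKO library 1 (−0.05, adjusted p = 0.114).

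Matricellular proteins are secreted modulators of adhesion rather than fibres. Postn (periostin) had 128 and 129 scaled counts in Mettl3 cKO against 79 and 83 in Mettl3 WT, and 558 and 557 in Virma cKO against 246 and 239 in Virma WT. Tnc (tenascin-C) had 271 and 235 scaled counts in Mettl3 cKO against 105 and 108 in Mettl3 WT, and 1478 and 1420 in Virma cKO against 550 and 514 in Virma WT. Thbs1 (thrombospondin-1) had 505 and 489 scaled counts in Mettl3 cKO against 359 and 397 in Mettl3 WT, and 2967 and 2928 in Virma cKO against 1301 and 1275 in Virma WT. Each was higher in both lines without overlap. In Mettl3 cKO the log2 fold changes were 0.66 ± 0.20 for Postn, 1.24 ± 0.18 for Tnc and 0.40 ± 0.10 for Thbs1, and in Virma cKO 1.20 ± 0.07 for Postn, 1.44 ± 0.05 for Tnc and 1.19 ± 0.04 for Thbs1. After correction for gene length and GC content Postn stood at 1.09 in Mettl3 cKO. Serpinf1, which encodes the secreted serpin known as pigment epithelium-derived factor, had 668 and 626 scaled counts in Mettl3 cKO against 168 and 130 in Mettl3 WT, and 1129 and 1107 in Virma cKO against 343 and 334 in Virma WT. It showed the largest member log2 fold change in both lines, 2.12 ± 0.15, adjusted p = 1.87e-20 in Mettl3 cKO, and 1.72 ± 0.06, adjusted p = 1.67e-39 in Virma cKO. Fstl1 (follistatin-like 1), a secreted glycoprotein, had 3442 and 3400 scaled counts in Mettl3 cKO against 3240 and 3319 in Mettl3 WT, and 5667 and 5592 in Virma cKO against 5160 and 5224 in Virma WT. It did not pass the test in Mettl3 cKO (0.06 ± 0.04, adjusted p = 0.185) and rose by 0.12 ± 0.03 in Virma cKO. Scaling by total moved the Virma value of Fstl1 to 0.26 and called its Mettl3 value (0.10, adjusted p = 0.0287), as did removal of the length and GC trend (0.11, adjusted p = 0.0120). Mgp, which inhibits calcification of cartilage and vessels, had too little signal for a test, with 1 and 3 scaled counts in Mettl3 cKO against 3 and 3 in Mettl3 WT, and 12 and 6 in Virma cKO against 6 and 6 in Virma WT.

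Acta2 and Tagln rose in both lines while the intermediate filament gene Vim did not. Acta2 encodes smooth muscle actin, a marker of myofibroblasts, and had 706 and 651 scaled counts in Mettl3 cKO against 314 and 309 in Mettl3 WT, and 2451 and 2440 in Virma cKO against 909 and 863 in Virma WT. Tagln (transgelin), an actin-binding protein, had 336 and 331 scaled counts in Mettl3 cKO against 178 and 152 in Mettl3 WT, and 1053 and 1005 in Virma cKO against 412 and 414 in Virma WT. On the log2 scale Acta2 rose by 1.12 ± 0.11 in Mettl3 cKO and 1.46 ± 0.04 in Virma cKO, and Tagln by 1.01 ± 0.15 in Mettl3 cKO and 1.32 ± 0.06 in Virma cKO. Vim (vimentin) had 6353 and 6452 scaled counts in Mettl3 cKO against 6688 and 6567 in Mettl3 WT, and 6358 and 6282 in Virma cKO against 6855 and 6778 in Virma WT. It did not pass the test in Mettl3 cKO (−0.05 ± 0.03, adjusted p = 0.166) and was called at −0.11 ± 0.02, adjusted p = 2.75e-05 in Virma cKO. After scaling by total the Virma value of Vim was 0.04 (adjusted p = 0.135). S100a4, often named fibroblast-specific protein 1, was at 0 in 7 libraries and at 1 in Virma cKO library 2, and was not tested.

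Of the surface genes, Thy1 (a glycolipid-anchored antigen) had 80 and 98 scaled counts in Mettl3 cKO against 33 and 41 in Mettl3 WT, and 170 and 162 in Virma cKO against 83 and 76 in Virma WT. Cdh11 (cadherin 11, a mesenchymal adhesion protein) had 103 and 83 scaled counts in Mettl3 cKO against 48 and 58 in Mettl3 WT, and 539 and 492 in Virma cKO against 207 and 189 in Virma WT. Pdgfrb (a receptor for platelet-derived growth factor) had 508 and 484 scaled counts in Mettl3 cKO against 446 and 505 in Mettl3 WT, and 516 and 524 in Virma cKO against 337 and 325 in Virma WT. Pdgfrb was thus close in Mettl3 cKO, Mettl3 WT and Virma cKO and lower in Virma WT. Thy1 rose by 1.24 ± 0.27 in Mettl3 cKO and 1.05 ± 0.12 in Virma cKO. Cdh11 rose by 1.38 ± 0.08 in Virma cKO, and was called at 0.81 ± 0.25 in Mettl3 cKO, a call lost without Mettl3 WT library 1 (0.67, adjusted p = 0.0787). Pdgfrb did not pass the test in Mettl3 cKO (0.07 ± 0.10, adjusted p = 0.56) and rose by 0.65 ± 0.07 in Virma cKO. The mesenchymal transcription factor Twist2 had 30 and 34 scaled counts in Mettl3 cKO against 3 and 22 in Mettl3 WT, and 144 and 132 in Virma cKO against 64 and 52 in Virma WT, and its Mettl3 WT values stand for 1 and 8 reads. Prrx1, a homeobox factor of limb and skull mesenchyme, had 74 and 78 scaled counts in Mettl3 cKO against 48 and 28 in Mettl3 WT, and 380 and 364 in Virma cKO against 152 and 137 in Virma WT. In Virma cKO Twist2 rose by 1.24 ± 0.17, a call lost without precision weights (adjusted p = 0.199), and Prrx1 by 1.36 ± 0.09. In Mettl3 cKO Twist2 was called at 1.78 ± 0.43, but stood at 0.51 without Mettl3 WT library 1 (adjusted p = 0.331), at 3.04 without Mettl3 WT library 2 (adjusted p = 2.41e-05), and lost the call without precision weights (adjusted p = 0.0882). Prrx1 was called at 1.02 ± 0.28 in Mettl3 cKO, and stood at 0.65 without Mettl3 WT library 2 (adjusted p = 0.0917).

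**Figure D2:**
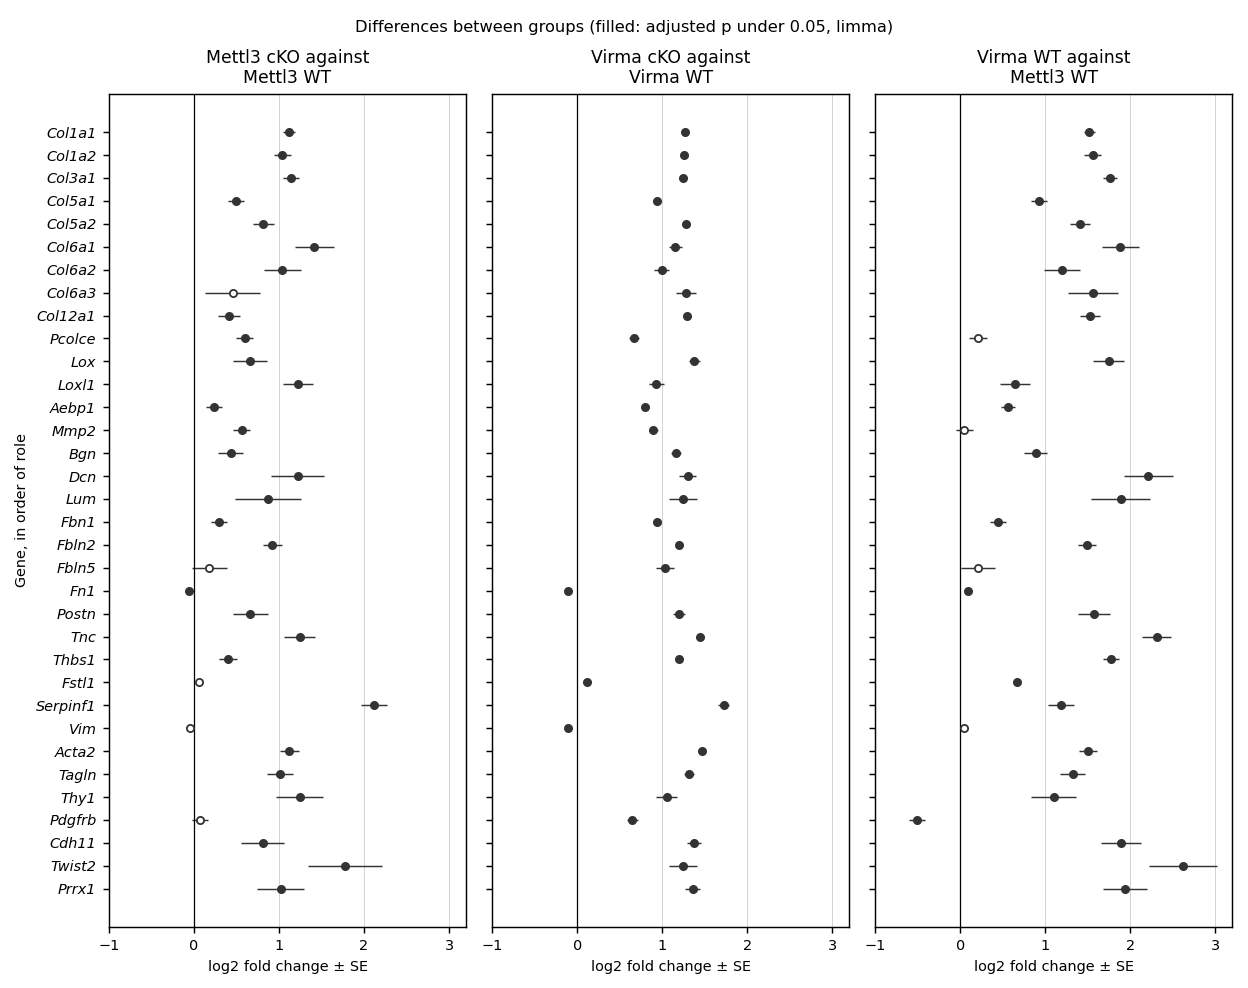
Log2 fold changes of the 34 tested members with their standard errors, ordered by role, for Mettl3 cKO against Mettl3 WT, Virma cKO against Virma WT, and Virma WT against Mettl3 WT (log2 axis). Serpinf1 has the largest value in both cKO comparisons (2.12 and 1.72), and Fn1 and Vim lie next to 0.

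The control libraries of the lines also differed from each other in most members. In Virma WT 29 of 34 members were higher than in Mettl3 WT, 1 was lower (Pdgfrb, −0.52 ± 0.10) and 4 did not pass the test, against 26.7% of all genes called higher and 22.9% lower (49.6% in all). The median log2 difference was 1.45, beside 0.03 for all genes. Twist2 (2.62 ± 0.40), Tnc (2.31 ± 0.17) and Dcn (2.21 ± 0.29) differed most. Without Mettl3 WT library 1 the value of Twist2 was 1.35. The Fn1 call (0.09 ± 0.02) was lost without Mettl3 WT library 2 (0.08, adjusted p = 0.0648). Mettl3 WT had the lowest mean of the 4 groups for 31 of the 34 tested members, and Virma cKO the highest for 32. The order of the groups was counted for the members only, so no share of all genes stands beside these counts. Set against Virma WT in place of Mettl3 WT, Mettl3 cKO had 5 members higher and 26 lower, with a median of −0.46, against 34.5% of all genes higher and 37.2% lower (71.7% in all, and 6.05% called and at least 2-fold). The direction in Mettl3 cKO thus depends on which control is used, and the comparisons share libraries: Mettl3 WT serves both the Mettl3 and the control comparison, and Virma WT both the Virma and the control comparison.

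Summed over the 36 members, the level was 36851 and 36802 in Mettl3 cKO against 32181 and 31980 in Mettl3 WT, and 66299 and 65264 in Virma cKO against 44776 and 44781 in Virma WT. Fn1, Vim and Fstl1 supplied 65.1% of it in Mettl3 cKO, 77.0% in Mettl3 WT, 40.5% in Virma cKO and 62.0% in Virma WT. Without these 3 genes the group means were 12846 in Mettl3 cKO and 7374 in Mettl3 WT, and 39170 in Virma cKO and 17024 in Virma WT. The 8 genes taken as defining for fibroblasts (Col1a1, Col1a2, Col3a1, Postn, Lum, Dcn, Twist2 and Prrx1) were above 0 in every library, and their sum was 2.13-fold higher in Mettl3 cKO than in Mettl3 WT, 2.39-fold higher in Virma cKO than in Virma WT, and 3.06-fold higher in Virma WT than in Mettl3 WT. Lum and Twist2 had the fewest scaled counts of the 8 in Mettl3 WT. Most of the sum came from Col1a1, Col1a2 and Col3a1, with means of 992, 380 and 468 of 2010 in Mettl3 WT. In Virma cKO they had 6835, 2653 and 3748 of 14733. The folds of the sum thus mainly repeat those of these collagens. Among members outside the 8, Fn1 and Vim did not rise in either line, and S100a4 and Mgp were too low for a test. In bulk RNA a change in the number of expressing cells and a change in RNA per cell cannot be told apart. Whether the cultures held fibroblasts or other supporting cells is not given in the labels, and the part of such cells in these values was not tested.

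Many members stood in a similar proportion to Col1a1 in all 4 groups. Among the other 33 tested members the ratio to Col1a1 varied by at most 1.5-fold over the 4 group means for 9, by at most 2-fold for 22 and by at most 3-fold for 27. Acta2 stood at 31.6% of Col1a1 in Mettl3 cKO and 31.4% in Mettl3 WT, and at 35.8% in Virma cKO and 31.2% in Virma WT. Col3a1 stood at 48.2% in Mettl3 cKO and 47.3% in Mettl3 WT, and at 54.9% in Virma cKO and 56.0% in Virma WT. The 6 beyond 3-fold were Pcolce (3.78), Mmp2 (3.59), Fstl1 (4.02), Pdgfrb (6.29), Fn1 (6.96) and Vim (7.23). Between 2-fold and 3-fold were Fbln5 (2.90), Aebp1 (2.69), Fbn1 (2.64), Serpinf1 (2.52) and Loxl1 (2.50). Serpinf1 stood at 30.1% of Col1a1 in Mettl3 cKO and 15.1% in Mettl3 WT, and at 16.4% in Virma cKO and 11.9% in Virma WT. These ratios describe 4 group means and carry no test. They were taken for the members only, which were chosen with earlier results known, so no share of all genes stands beside these counts.

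**Figure D3:**
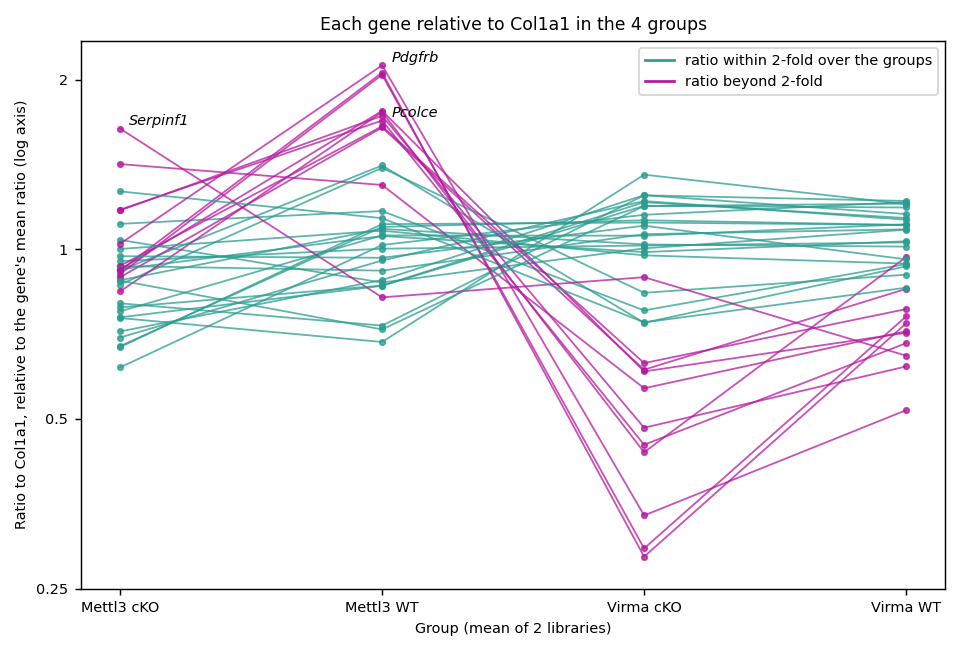
Ratio of each tested member to Col1a1 in the 4 groups (mean of 2 libraries), divided by the gene's mean ratio over the groups (log axis); each line is 1 gene. Green lines are the 22 genes whose ratio stayed within 2-fold over the groups, and purple lines the others, among them Pdgfrb, Pcolce and Serpinf1.

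The effects in the 2 lines were compared gene by gene by the difference of log2 fold changes, Virma minus Mettl3. Of 34 members, 15 had a larger effect in Virma cKO, 1 had a smaller one (Serpinf1) and 18 did not pass the test, against 24.1% of all genes called higher and 28.6% lower (52.7% in all). The median difference was 0.32, beside −0.02 for all genes, and 0 called members differed by 2-fold or more, where 5.61% of all genes did. Col12a1 (0.88 ± 0.14), Fbln5 (0.86 ± 0.23), Thbs1 (0.79 ± 0.11), Bgn (0.73 ± 0.16), Fbn1 (0.65 ± 0.11), Pdgfrb (0.58 ± 0.12), Aebp1 (0.56 ± 0.10) and Col5a1 (0.44 ± 0.11) kept the call whichever library was left out. The other 8 calls were lost in at least 1 such fit. After correction for gene length and GC content the difference was 0.42 for Col12a1 and 0.25 for Fbn1, both still called, and their Mettl3 values were 0.68 and 0.48. For Col1a1 the difference was 0.15 ± 0.07, adjusted p = 0.0619, which did not pass the test, with values of 0.15 to 0.26 and adjusted p of 0.00102 to 0.0384 in the 7 alternatives that did call it.

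Genes that modify and fold collagen went both ways. Of 26 enzymes and chaperones of collagen synthesis, 5 were higher and 13 lower in Mettl3 cKO, and 10 higher and 13 lower in Virma cKO, with medians of −0.18 and −0.24. Of all genes tested, 26.7% were higher and 30.1% lower in Mettl3 cKO, and 36.5% higher and 38.7% lower in Virma cKO. Fkbp10, a collagen chaperone of the endoplasmic reticulum, had 1545 and 1557 scaled counts in Mettl3 cKO against 579 and 659 in Mettl3 WT, and 1905 and 1880 in Virma cKO against 767 and 723 in Virma WT, and rose by 1.33 ± 0.08 and 1.34 ± 0.04 on the log2 scale. P4ha2, a prolyl hydroxylase subunit, had 782 and 797 in Virma cKO against 2751 and 2726 in Virma WT and fell by 1.79 ± 0.04. Other collagens outside the basement membrane were higher in 5 and lower in 2 of 13 tested in Mettl3 cKO, and higher in 6 and lower in 3 in Virma cKO (medians 0.42 and 0.32). Col11a1, a fibril collagen of cartilage, had 192 and 189 in Mettl3 cKO against 604 and 516 in Mettl3 WT and fell by 1.55 ± 0.11.

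Other elastic fibre, proteoglycan and matricellular genes were higher in 13 and lower in 3 of 26 tested in Mettl3 cKO, and higher in 19 and lower in 2 in Virma cKO (medians 0.34 and 0.68). The summed level of the 35 listed genes went the other way, at a mean of 46184 in Mettl3 cKO against 55185 in Mettl3 WT, and 35676 in Virma cKO against 44038 in Virma WT. Thbs2, a thrombospondin, had 735 and 738 in Virma cKO against 273 and 269 in Virma WT (1.44 ± 0.07). Of 18 tested proteases and inhibitors 9 were higher and 4 lower in Mettl3 cKO, and 14 higher and 3 lower in Virma cKO (medians 0.29 and 0.91). Mmp9, a gelatinase, had 1696 and 1566 in Virma cKO against 458 and 544 in Virma WT (1.71 ± 0.05). Of 19 genes of the TGF-beta pathway, known for inducing matrix genes in fibroblasts, 6 were higher and 4 lower in Mettl3 cKO, and 14 higher and 1 lower in Virma cKO (medians 0.14 and 0.44). The ligand gene Tgfb3 had 205 and 209 in Virma cKO against 82 and 90 in Virma WT (1.26 ± 0.12). Of 21 other contractile genes tested, 5 were higher and 7 lower in Mettl3 cKO, and 15 higher and 5 lower in Virma cKO (medians 0.03 and 0.41). Their summed level, over 22 listed genes, averaged 54473 in Mettl3 cKO against 63844 in Mettl3 WT, and 68162 in Virma cKO against 62907 in Virma WT. Myl9, a myosin light chain, had 307 and 268 in Virma cKO against 110 and 119 in Virma WT (1.32 ± 0.10). Of 28 other mesenchymal and fibroblast markers tested, 14 were higher and 3 lower in Mettl3 cKO, and 19 higher and 5 lower in Virma cKO (medians 0.51 and 0.64). The 34 listed genes summed to a mean of 10974 in Mettl3 cKO against 13016 in Mettl3 WT, and 12924 in Virma cKO against 13825 in Virma WT. The largest change among these markers in Virma cKO was a fall, that of Pdgfra, which is also on the primitive endoderm list. Pdgfra had 933 and 1011 in Virma cKO against 3901 and 3755 in Virma WT (−1.98 ± 0.04). In Mettl3 cKO it had 2115 and 2145 against 3821 and 3758 in Mettl3 WT (−0.83 ± 0.04). Of 30 Hox genes tested 11 were higher and 3 lower in Mettl3 cKO, and 17 higher and 7 lower in Virma cKO (medians 0.36 and 0.36). Beside the counts of all these lists, 26.7% of all genes were higher and 30.1% lower in Mettl3 cKO. In Virma cKO the shares were 36.5% and 38.7%.

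Among marker lists of other cell types, the primitive and parietal endoderm lists were mostly lower in both lines. The shares of all genes beside these counts were 26.7% higher and 30.1% lower in Mettl3 cKO, and 36.5% and 38.7% in Virma cKO. Of 15 primitive endoderm genes none was higher and 13 were lower in Mettl3 cKO, and none was higher and 15 were lower in Virma cKO, with medians of −0.55 and −2.66. Gata6, a transcription factor of primitive endoderm, had 1595 and 1496 in Mettl3 cKO against 2656 and 2456 in Mettl3 WT, and 204 and 221 in Virma cKO against 1847 and 1791 in Virma WT. The log2 fold change of Gata4 was −0.30 ± 0.04 in Mettl3 cKO and −2.66 ± 0.04 in Virma cKO. That of Sox17 was −1.92 ± 0.08 in Virma cKO and did not pass the test in Mettl3 cKO (−0.05 ± 0.08, adjusted p = 0.631). The pluripotency factor Pou5f1 had 10130 and 10364 in Mettl3 cKO against 8212 and 8394 in Mettl3 WT, and 5137 and 5124 in Virma cKO against 9374 and 9629 in Virma WT. Nanog had 1962 and 1874 in Mettl3 cKO against 2223 and 2307 in Mettl3 WT, and 973 and 998 in Virma cKO against 2314 and 2243 in Virma WT. Pou5f1 was higher and Nanog lower in Mettl3 cKO (0.30 ± 0.03 and −0.24 ± 0.05), and both were lower in Virma cKO (−0.89 ± 0.02 and −1.21 ± 0.04). Sox2 had 853 and 853 in Mettl3 cKO against 1030 and 1026 in Mettl3 WT, and 986 and 951 in Virma cKO against 1017 and 1087 in Virma WT (−0.27 ± 0.07 and −0.12 ± 0.04). Of 12 pluripotency genes 3 were higher and 5 lower in Mettl3 cKO, and 2 higher and 10 lower in Virma cKO (medians −0.14 and −0.54). Summed primitive endoderm levels were 166694 and 166712 in Mettl3 cKO against 261068 and 262389 in Mettl3 WT, and 39495 and 39646 in Virma cKO against 208138 and 209627 in Virma WT. These sums are given beside the member values, and their part in the member results was not tested. Set against Virma WT, Mettl3 cKO had 2 of the 15 primitive endoderm genes higher and 11 lower. In that comparison 5 of 34 members were higher and 26 lower, beside 34.5% and 37.2% of all genes. Of 13 parietal endoderm genes 1 was higher and 9 lower in Mettl3 cKO, and 4 higher and 8 lower in Virma cKO (medians −0.50 and −0.79). Mesoderm genes were higher in 6 and lower in 1 of 10 tested in Mettl3 cKO, and higher in 2 and lower in 5 in Virma cKO (medians 0.85 and −0.14). Of 6 tested endothelium and blood genes 3 were higher and 2 lower in Mettl3 cKO, and 1 higher and 4 lower in Virma cKO (medians 0.15 and −0.79). Trophoblast genes were higher in 2 and lower in 3 of 8 tested in Mettl3 cKO, and higher in 3 and lower in 2 in Virma cKO (medians −0.12 and 0.05).

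**Figure D4:**
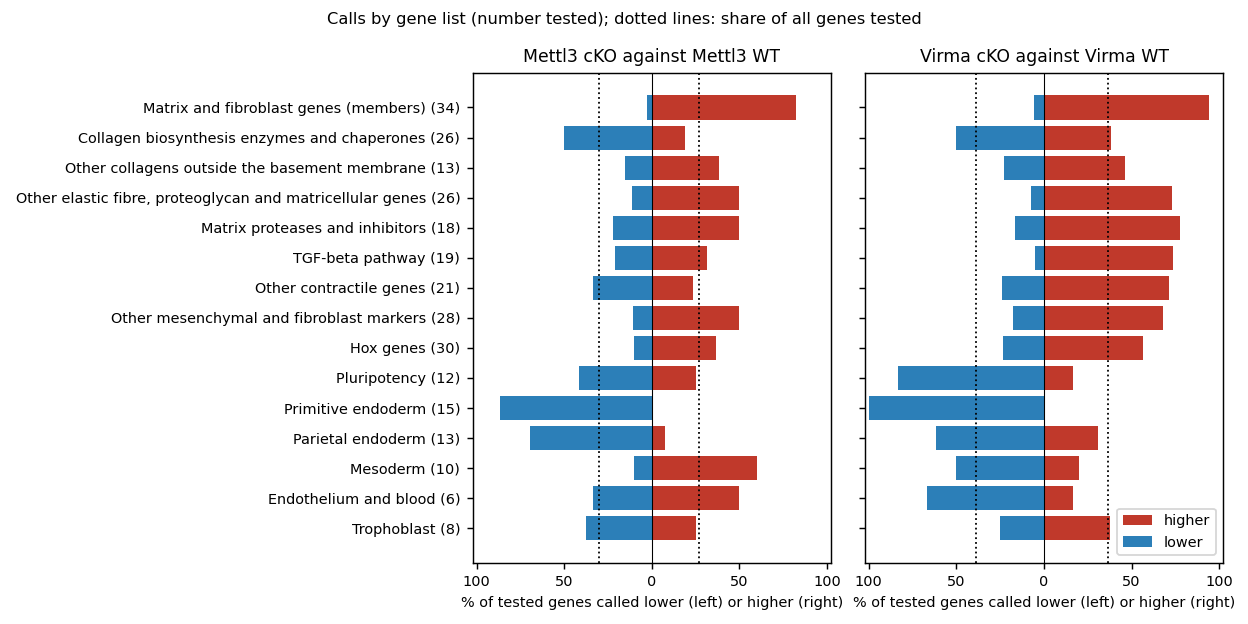
Percent of tested genes called higher (right) and lower (left) in each gene list, with the share of all genes as dotted lines, for Mettl3 cKO against Mettl3 WT and for Virma cKO against Virma WT, beside the members. Of the 34 tested members 28 are higher and 1 lower in Mettl3 cKO and 32 higher and 2 lower in Virma cKO, while 0 of 15 primitive endoderm genes are higher in either.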

How the data were processed

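Total RNA of 8 libraries was analysed, and their titles gave the groups. TRIzol extraction and 2 library kits (SMARTer stranded, VAHTS universal) were used per the labels' protocols, which do not assign kits to libraries. STAR 2.7.11b, Subread, Trim Galore, DESeq2 and FastQC 0.12.1, and mm39 as build, are named per the submitters' processing notes, without roles or a strand setting, so reads of overlapping or antisense genes cannot be told apart. The authors deposited 1 table of scaled counts, treated here as a score per gene symbol. It is titled as raw counts, but the upper quartile is 601.25 to 602 in all 8 libraries. In the Mettl3 WT libraries all low values (up to 400) fall on rounded multiples of a factor per library (2.55 and 2.76). Where a factor is below 1 every whole number is such a multiple, so this check tells nothing there. Each factor was fitted to how often each low value occurs, and some had a near rival (0.6802 against 0.6536 in Virma cKO library 1). Dividing by that factor gave the reads, to within 1 where the factor is below 1 and neighbouring read numbers round to the same value. Replicate pairs differed in reads by a chi-square per degree of freedom of 1.08 to 1.89, so no pair was merged.

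A count model had been planned and was not used on such rounded, scaled values. limma 3.58.1 in R 4.3.3 was fitted to log2(value + 1) of all 4 groups, with precision weights from the estimated reads, robust moderation, 4 residual degrees of freedom, two-sided tests and Benjamini-Hochberg adjustment over 12671 genes with at least 30 in both libraries of a group. Fold changes are on this log2(value + 1) scale, which understates low genes. Weights and minimum were chosen for the share of false calls on simulated tables, after member calls from an unweighted and a weighted fit with a minimum of 10 had been seen; both settings are among the alternatives. In simulated data the fit recovered 46, 66, 98 and 100% of changes of 1.3, 1.5, 2 and 4-fold in the Mettl3 comparison (12375 genes), with 8.28% of calls false, above the nominal 5%, and 86, 92, 100 and 100% in the Virma comparison (12382 genes), with 5.03% false. Each fold had 50 changed genes with a mean of at least 50 over the 8 libraries. No other gene was changed, and 1 fixed dispersion was used. In the data 56.8% of genes were called in Mettl3 cKO and 75.2% in Virma cKO. The simulated shares therefore do not describe genes below that mean or tables with so many changes.

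Members and lists were chosen with earlier results of these data known. All members are accounted for, and from each list up to 3 called genes with the largest change in a cKO comparison may be named, besides Mettl3, Virma, Pou5f1, Nanog, Sox2, Gata6, Gata4, Sox17 and Pdgfra as checks of the labels. Gene length and GC content came from an annotation matching 98.9% of symbols. Promoter windows came from RefSeq (GRCm38.p6), another build than mm39. The alternatives were other scalings, filters and pseudocount, no weights, a length and GC correction, a 2-fold minimum, gene classes removed, each line alone, a replicate block, Virma WT as control, the Virma cKO pair as 1 sample, and leaving out each library.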

Additional observations from a re-analysis of the deposited data

Results flagged for a closer look

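The log2 fold change in Virma cKO differed from that in Mettl3 cKO for 16 members by a test of the difference itself (limma, adjusted p below 0.05), of 34 tested; 52.7% of all genes did so. Among the collagens the difference, Virma minus Mettl3, was 0.44 for Col5a1, 0.46 for Col5a2, 0.82 for Col6a3 and 0.88 for Col12a1. Among processing genes it was 0.72 for Lox, 0.56 for Aebp1 and 0.34 for Mmp2. For proteoglycan and elastic fibre genes it was 0.73 for Bgn, 0.65 for Fbn1, 0.28 for Fbln2 and 0.86 for Fbln5. For secreted genes it was 0.54 for Postn, 0.79 for Thbs1 and −0.40 for Serpinf1, and for Acta2 and Pdgfrb it was 0.34 and 0.58.

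Col5a1, Col12a1, Aebp1, Bgn, Fbn1, Fbln5, Thbs1 and Pdgfrb kept this call with any single library left out. The other 8 lost it as follows. Without Mettl3 WT library 1 the difference was 0.34 for Col5a2 (adjusted p = 0.125), 0.12 for Fbln2 (adjusted p = 0.592), 0.57 for Postn (adjusted p = 0.0863) and 0.33 for Acta2 (adjusted p = 0.0797). Col6a3 kept its call in that fit but stood at 1.34 (adjusted p = 0.00338). Without Mettl3 WT library 2 it was 0.34 for Col6a3 (adjusted p = 0.570), 0.62 for Lox (adjusted p = 0.0555), 0.28 for Mmp2 (adjusted p = 0.0963), 0.50 for Postn (adjusted p = 0.127) and −0.22 for Serpinf1 (adjusted p = 0.377). Fbln2 stood at 0.43 in that fit and kept its call (adjusted p = 0.0106), and Twist2, not called with all libraries, reached −1.80 (adjusted p = 0.0139). Without Mettl3 cKO library 1 the calls of Col6a3, Fbln2, Postn and Serpinf1 were also lost, at 0.73, 0.26, 0.53 and −0.35, and without library 2 that of Postn, at 0.54. Without Virma cKO library 1 the calls of Col6a3 (0.74) and Fbln2 (0.27) were lost, and without library 2 that of Serpinf1 (−0.38). Without Virma WT library 1 the calls of Col6a3 (0.72), Fbln2 (0.22) and Serpinf1 (−0.38) were lost. After correction for gene length and GC content the calls of Col5a2 (0.25, adjusted p = 0.119), Col6a3 (0.53, adjusted p = 0.204), Lox (0.47, adjusted p = 0.0594), Postn (0.05, adjusted p = 0.881) and Serpinf1 (−0.13, adjusted p = 0.526) were lost. Scaling by total also ended the call of Serpinf1 (−0.29, adjusted p = 0.129). With no filter those of Col6a3 (adjusted p = 0.0934), Fbln2 (0.081) and Serpinf1 (0.0532) were lost. Col6a3 also lost its call with the CPM filter (0.0504) and with a minimum of 10 (0.0592).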

How the results depend on the processing

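Over the member values 2538 kept direction and side of the threshold under the alternatives, 64 lost and 27 gained a call without a change of sign, and 22 reversed. With the length and GC trend removed Fn1 was 0.02 in Mettl3 cKO, and after scaling by total Fn1 and Vim were 0.04 in Virma cKO and the Fn1 difference between lines 0.07. The other 18 were called in neither fit. Among these, leaving out 1 library gave −0.06 to 0.94 for Col6a3 and −0.02 to 0.15 for Pdgfrb in Mettl3 cKO, −0.02 to 0.10 for Mmp2 in Virma WT against Mettl3 WT, and for the difference −0.7 to 0.22 for Col6a1, −0.19 to 0.12 for Col6a2, −0.08 to 0.21 for Pcolce, −0.03 to 0.18 for Dcn, −1.80 to 0.73 for Twist2 and −0.05 to 0.71 for Prrx1. Apart from Col6a2 and Dcn, these reversed, among the single-library omissions, only without Mettl3 WT library 1. The difference was also 0.06 for Col6a2 and 0.05 for Vim after scaling by total, and −0.34 for Dcn, 0.10 for Thy1 and −0.04 for Prrx1 with the trend removed. Scaling by total moved the median of all genes to 0.13 in Virma cKO and the share of calls that were higher to 64.2%, against 48.5%, and for the difference between lines to 60.1%, against 45.8%. With a 2-fold minimum the members called were 14 in Mettl3 cKO (14 higher, 0 lower), 0 for the difference and 0 lower in Virma cKO and in Virma WT against Mettl3 WT, and 661, 1113, 711 and 634 of all genes remained past both thresholds in the Mettl3, Virma, difference and control comparisons. With Virma WT as control, Mettl3 cKO had 5 members higher and 26 lower. Members called lower went to 0 after scaling by total (Mettl3, Virma, difference), with the length and GC trend removed (Mettl3) and without a filter (difference). Leaving out each library gave 22 to 28 members called in Mettl3 cKO (22 to 27 higher, 0 to 1 lower), 34 in Virma cKO, 12 to 17 for the difference (11 to 17 higher, 0 to 1 lower) and 29 to 31 in the controls. The summed member level was 36454 in Mettl3 cKO and 31843 in Mettl3 WT, and 44198 in Virma WT, with median-of-ratios factors, and 31253 in Mettl3 WT, 70228 in Virma cKO and 43179 in Virma WT after scaling by total. With the replicate block 29 members were called in Mettl3 cKO, 34 in Virma cKO, 18 for the difference and 30 in the controls; libraries share only a number (correlations of same-numbered deviations −0.012 to 0.059 over 6 pairs of groups), and the block gave calls to Col1a1 and Cdh11 in the difference. The cause of these shifts was not tested. The planned count models were not run: the values are scaled and rounded, and the reads behind them are estimates. Depth limits low genes in Mettl3 WT most.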
